A study of Sus scrofa with 2 samples.

Results

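The genes described here make androgen and estrogen in the pig ovary, together with INSL3, a peptide hormone of the theca. They are CYP17A1, CYP19A1, CYP19A3, HSD17B1 and INSL3. Their probes were found by the RefSeq accession that the array files give for each probe, which named 5 genes with 8 probes among 2459 genes with 5577 probes. CYP19A2, a paralog of CYP19A1 and CYP19A3 with 1 probe, was added for the comparison of the aromatase genes. Ovarian tissue without corpora lutea was taken from conventional pigs (Yorkshire sows) and minipigs (Midget pigs), females of the same age that had passed through several cycles, on day 15 of the cycle. Total RNA of each breed was hybridised to 1 single-colour array. The methods name several animals of each breed, and pooling of their RNA is not given in the sources used here.

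Follicular steroid synthesis is shared between neighbouring cell layers. Theca cells, stimulated by luteinizing hormone, turn cholesterol into progestins and then, through CYP17A1, into androgens. Aromatase and HSD17B1 turn androgens into estradiol, in most mammals chiefly in granulosa cells under follicle-stimulating hormone, while in the pig theca cells also make estrogen. Most mammals have a single aromatase gene. The pig has CYP19A1, known as the gonadal form, CYP19A2, known as the placental form, and CYP19A3, known as the form of the early embryo. In the RefSeq annotation of the assembly Sscrofa11.1 they lie next to each other on chromosome 1 in the order CYP19A3, CYP19A1, CYP19A2.

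Each array held 43803 spots other than controls. The array labelled minipig had a median intensity of 127, with 88.1% of its probes flagged as well above background, and the array labelled conventional pig had 119 and 85.2%. All values below are the scanner's processed intensity, or its log2 value minus the 75th percentile of the array, called the level. Minipig ovary and conventional pig ovary below stand for the arrays that the scanner files label so, and every difference is conventional pig minus minipig. The authors' deposited table of log2 values assigns the same arrays to the opposite breeds. Which assignment is right was not tested, so each direction below is exchanged under the labels of that table. As that table names the breeds, 2923 probes were at least 2-fold higher in conventional pigs and 2694 in minipigs. The paper's 2-fold counts, 2694 up and 2923 down in conventional pigs, thus have the direction of the scanner labels. For protein, its antibodies were to an estrogen receptor, the beta subunit of follicle-stimulating hormone and the luteinizing hormone receptor. It reports the first and second higher in minipigs and the third higher in conventional pigs. Its discussion calls the second a receptor. Under the scanner labels the genes of these hormones' receptors were at -0.29 (ESR1), -3.63 (FSHR) and -0.62 (LHCGR). ESR1 went the same way as the protein and LHCGR the other way, while FSHR is not the gene of the subunit measured. The protein measures were not used to assign the arrays. As each breed has 1 array, the differences have no replicate check and no p-value. The spread of repeated spots, from 42 probes printed several times, gave an SD of 0.25 for a log2 difference of 2 single spots, called the spot SD, and 0.36 for the gap between 2 such differences. It does not cover the animals.

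Androgen and estrogen genes were mostly higher in minipig ovary. Of the 8 probes of the member genes, 5 were at least 2-fold higher in minipig ovary, where 8.94% of all 38883 probes with a value were, and 0 were at least 2-fold higher in conventional pig ovary, against 7.48% of all probes. By gene, as the median over its probes, 4 of 5 were at least 2-fold higher in minipig ovary and 0 in conventional pig ovary, against 7.96% and 11.7% of 2363 genes. The median log2 difference was -2.72 over the member probes and -0.12 over all probes. It was -2.96 over the member genes and 0.04 over all genes. CYP19A1 was the member that did not pass 2-fold. CYP17A1 passed by the midpoint of its 2 probes, and its probe A_72_P548186 alone, at -0.99, fell short. All 8 member probes and the CYP19A2 probe were well above background on both arrays, so none of their differences is a bound.

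**Figure D1:**
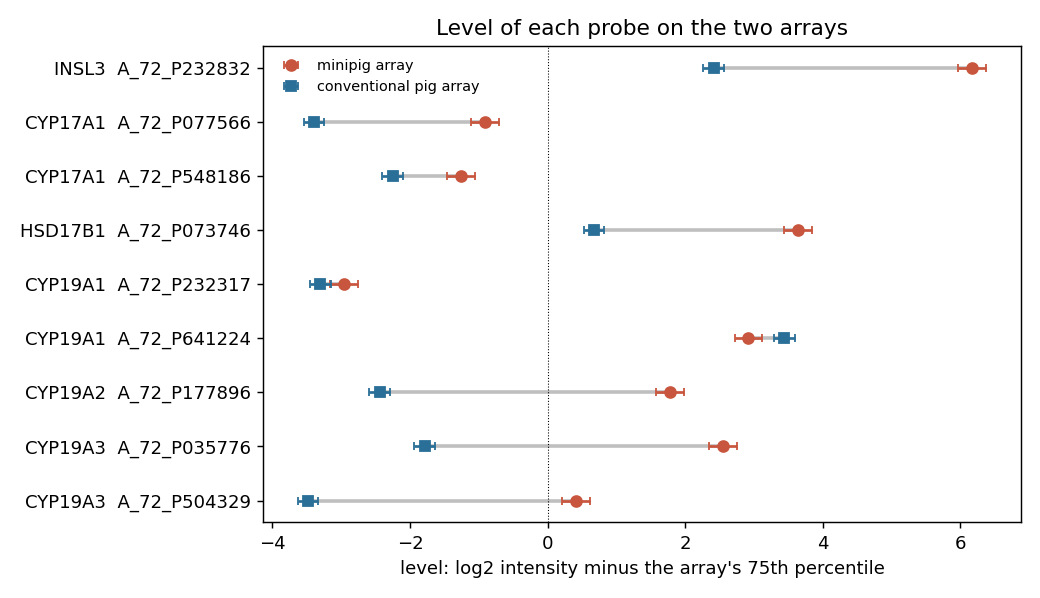
Level of each of the 9 probes (log2 intensity minus the 75th percentile of the array, dotted line at 0) on the minipig array (circles) and the conventional pig array (squares), with bars of 1 SD between repeated spots of that array. The pairs of symbols lie far apart for INSL3, HSD17B1, CYP19A2 and CYP19A3 and close together for CYP19A1.

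INSL3, the relaxin-family hormone that theca cells secrete, had an intensity of 35583 in minipig ovary and 2729 in conventional pig ovary. Its level was 6.17 in minipig ovary and 2.41 in conventional pig ovary. Minipig ovary was 13.5-fold higher, a log2 difference of -3.76 or -14.9 spot SDs, and both intensities were far above the lowest intensity flagged as well above background, 10.6 in minipig ovary and 11.5 in conventional pig ovary. Only 57 of the 38883 probes had a difference as low or lower. INSL3 is measured by 1 probe, so its value has no check by another probe. In ovarian tissue of mixed cells, fewer cells of a type and less RNA per cell cannot be told apart, for INSL3 and for every gene below.

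CYP17A1, the enzyme that turns progestins into androgens, was also higher in minipig ovary. Its probe A_72_P077566 had an intensity of 263 in minipig ovary and 48.7 in conventional pig ovary, a log2 difference of -2.49 (5.61-fold higher in minipig ovary). Its probe A_72_P548186 had an intensity of 206 in minipig ovary and 108 in conventional pig ovary, a log2 difference of -0.99 (1.99-fold). Both probes were higher in minipig ovary, at -9.85 and -3.92 spot SDs, but they differed in size. Their gap of 1.50 is large for this array: of 637 genes with 2 probes, 3.30% had a gap at least as wide, and the median gap was 0.28. The gene's value of -1.74 is the midpoint of probes that do not give the same size. With normexp, a model-based background correction that adds an offset to every spot, the first probe was at -1.77 and the second at -0.62.

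HSD17B1, the dehydrogenase that reduces estrone to estradiol, had an intensity of 6129 in minipig ovary and 818 in conventional pig ovary. Minipig ovary was higher by 7.77-fold, a log2 difference of -2.96 or -11.7 spot SDs. Its single probe stood at rank 141 from the low end among the 38883 probes. Over 7 other settings of scaling, background correction and filter, the difference ran from -3.19 to -2.80.

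**Figure D2:**
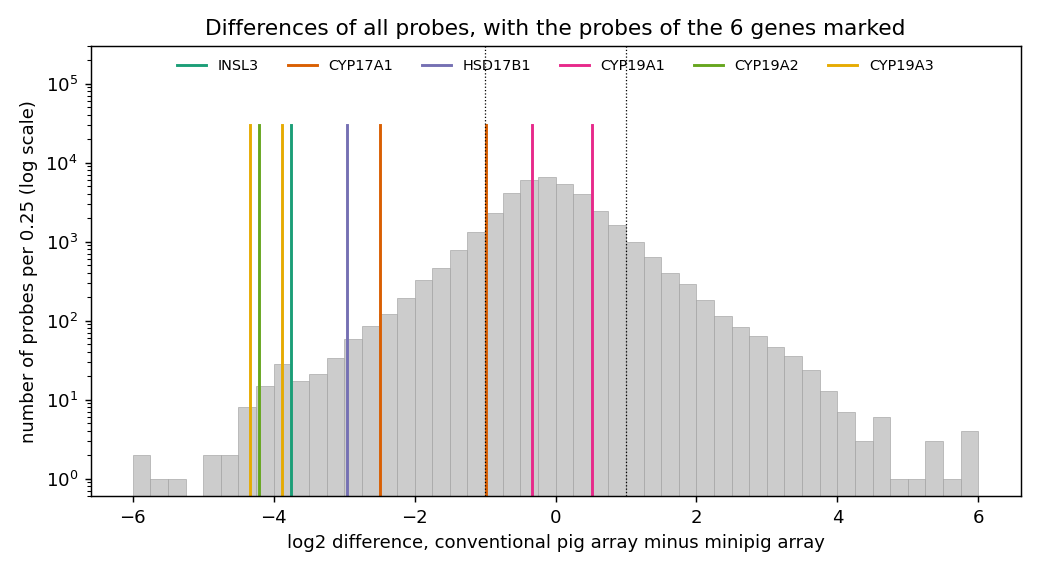
Number of probes (log scale) by log2 difference, conventional pig array minus minipig array, in bins of 0.25, over the 38883 probes with a value, with values beyond 6 in either direction counted in the end bins. Coloured lines mark the 9 probes of the 6 genes and dotted lines mark 2-fold. The CYP19A2, CYP19A3 and INSL3 probes lie in the low tail, and both CYP19A1 probes lie in the bulk.

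The aromatase paralogs did not move together. Aromatase converts androgens to estrogens. CYP19A3 was lower in conventional pig ovary by both of its probes. Probe A_72_P035776 had an intensity of 2904 in minipig ovary and 149 in conventional pig ovary, and probe A_72_P504329 had 655 in minipig ovary and 45.9 in conventional pig ovary. Minipig ovary was higher by 20.3-fold at the first probe (log2 difference -4.34) and by 14.8-fold at the second (-3.89). With the first of them, only 10 of all 38883 probes were as low or lower. The gap between these probes, 0.45, was 1.27 times the spot SD of a gap.

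CYP19A2 had an intensity of 1693 in minipig ovary and 94.6 in conventional pig ovary. Minipig ovary was again the higher, by 18.6-fold (log2 difference -4.22). Among the 3 probes of CYP19A2 and CYP19A3 the pairwise gaps in log2 difference ran from 0.13 to 0.45. The gap between the CYP19A2 probe and the nearer CYP19A3 probe was 0.35 of the spot SD of such a gap. With normexp the probes lay further apart, at -3.57 for CYP19A2 and at -4.01 and -2.84 for CYP19A3.

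CYP19A1, the gonadal form, gave another picture. Probe A_72_P641224 had an intensity of 3739.9 in minipig ovary and 5565 in conventional pig ovary, and was 1.43-fold higher in conventional pig ovary (log2 difference 0.52, or 2.06 spot SDs). Probe A_72_P232317 had 63.4 in minipig ovary and 51.9 in conventional pig ovary, a log2 difference of -0.34 or -1.34 spot SDs. The probes of this gene pointed in opposite directions, with a gap of 0.86 (2.41 times the spot SD of such a gap), and the gene's median of 0.09 has no settled direction. Opposite signs are common on this array, at 23.4% of the genes with 2 probes, and 11.6% had a gap at least as wide as that of CYP19A1.

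Compared probe by probe, each CYP19A1 probe stood apart from each probe of the other paralogs. The 6 pairs of a CYP19A1 probe with a CYP19A2 or CYP19A3 probe had gaps in log2 difference from 3.55 to 4.86. The smallest of them was 9.92 times the spot SD of such a gap. A gap of this kind is a ratio of ratios: between the A_72_P232317 probe of CYP19A1 and the A_72_P504329 probe of CYP19A3 it corresponds to 11.7-fold. Such gaps do not change with a constant per array, so the 75th percentile and the median give the same values. CYP19A3 minus CYP19A1, as gene medians, was -4.20, and -3.57 with normexp background correction. The same correction placed CYP19A2 at -3.57 and CYP19A3 at -3.43, still past 2-fold. Paralogs share sequence, and binding of the transcript of a paralog by these probes was not tested, so the values of CYP19A1, CYP19A2 and CYP19A3 are uncertain as to which gene they report.

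**Figure D3:**
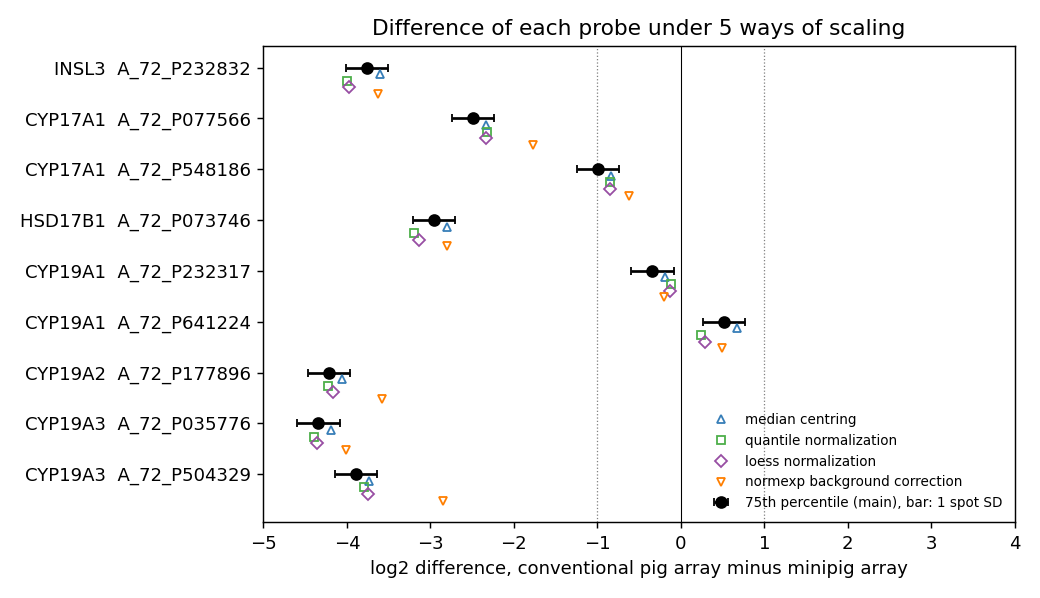
Log2 difference of each of the 9 probes, conventional pig array minus minipig array, with the 75th percentile (black, bars of 1 spot SD) and with 4 alternatives (open symbols). Dotted lines mark 2-fold. Each probe stays on its side of 0 in all of them, and normexp background correction draws the probes of CYP17A1, CYP19A2 and CYP19A3 toward 0.

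In order of their log2 difference the genes ran CYP19A2 (-4.22), CYP19A3 (-4.11), INSL3 (-3.76), HSD17B1 (-2.96), CYP17A1 (-1.74) and CYP19A1 (0.09). CYP19A2 and CYP19A3 were 0.28 spot SDs of a gap apart. CYP19A3 and INSL3 were 1.0 apart, or 0.36 and 1.63 by single probes. These neighbours do not differ clearly beyond the spots. The SD used is that of single probes, so the multiples are too low for a gene taken as the midpoint of 2 probes. INSL3 and HSD17B1 were 2.24 apart, HSD17B1 and CYP17A1 3.41, and CYP17A1 and CYP19A1 5.12. The gaps of CYP17A1 lean on the probe taken: by single probes it was 1.32 or 5.50 from HSD17B1 and from 1.82 to 8.42 from CYP19A1. Of the 2363 genes with a value, 6 were as low as CYP19A3 or lower, 10 as low as INSL3, 16 as low as HSD17B1 and 58 as low as CYP17A1. CYP19A1 lay near the middle, with 53.3% of genes as low or lower.

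The members are set here against the split of all probes, which depends on the setting. Of the probes past 2-fold, 54.4% were higher in minipig ovary, against 40.2% with the median of each array set to 0 (median centring), 48.6% with quantile normalization, 49.0% with loess normalization and 41.1% with normexp. Median centring moved the median of all probes by 0.15 and quantile normalization by 0.11. The member genes past 2-fold were all at -1.74 or lower.

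The genes most like each member were those with at least 2 probes, all well above background on both arrays, whose difference was nearest to it over the 2 arrays. For CYP19A3 they were AMY2 (-3.95) and IGFBP2 (-4.31), and for INSL3 they were AMY2 and CYP19A3 itself. HSD17B1 had PDK4 (-3.04) and HSP70.2 (-2.84) nearest to it. CYP17A1 had HTT (-1.73) and CHI3L1 (-1.75), and CYP19A1 had CAPN2 (0.09) and EAPP (0.09). With 2 arrays this likeness is that of a single difference. None of the members lie beside one another except the aromatase genes: CYP17A1 overlaps BORCS7 on chromosome 14, HSD17B1 lies between COASY and ATP6V0A1 on chromosome 12, and INSL3 lies between JAK3 and B3GNT3 on chromosome 2.

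Among genes of the steps from cholesterol to progesterone, which feed CYP17A1, STAR, CYP11A1 and HSD3B1 went the other way from it. STAR, which carries cholesterol into mitochondria, had intensities from 4687 to 16501 over its 6 probes in minipig ovary and from 40619 to 144795 in conventional pig ovary. It was higher in conventional pig ovary at every probe, with a gene log2 difference of 3.07. CYP11A1, which cuts the cholesterol side chain, was at 2.63, and HSD3B1, which makes progesterone, was at 3.11. Over the 11 probes of these 3 genes the log2 differences ran from 2.61 to 3.36, while the 6 probes of CYP17A1, CYP19A2, CYP19A3 and HSD17B1 ran from -4.34 to -0.99. These groups were put together after their values were seen. SCP2, a sterol carrier protein outside both groups, also passed 2-fold, at 4.52. Some other genes of the steps from cholesterol to progesterone did not pass 2-fold. TSPO, a protein of the outer mitochondrial membrane that binds cholesterol, was at -0.24. FDX1, which passes electrons to CYP11A1, was at 0.63. CYP19A1, an aromatase left out of the second group, was at 0.09, and with it the probes of that group ran from -4.34 to 0.52.

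CYP17A1 draws electrons from POR, and CYB5A favours its androgen-forming reaction. CYB5A went the other way from CYP17A1 and was higher in conventional pig ovary at all 6 probes, from 2.06 to 2.63 in log2 difference. POR had the same sign as CYP17A1, at -0.84, with 3 probes from -1.08 to -0.11.

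Of 44 genes listed for steroid synthesis and metabolism, 23 were named on the array and all 23 had a value. At least 2-fold higher were 6 in minipig ovary (26.1%, against 7.96% of all genes) and 8 in conventional pig ovary (34.8%, against 11.7%), and the median log2 difference was 0.09, against 0.04 over all genes. Without the members and CYP19A2, 18 genes were left, with 2 past 2-fold in minipig ovary, 8 in conventional pig ovary and a median of 0.50. The 2 were CBR1 (-1.49), a carbonyl reductase, and SULT1E1, which sulfates and so inactivates estrogens. SULT1E1 had an intensity of 115 in minipig ovary and in conventional pig ovary it was not well above background, so it was at least 10.3-fold higher in minipig ovary, and its difference was -1.39 with normexp background correction.

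Higher in conventional pig ovary by at least 2-fold, beside STAR, CYP11A1, HSD3B1 and CYB5A, were SCP2 (4.52), a sterol carrier protein, and HSD11B2 (2.36), which inactivates cortisol. HSD17B4 (1.13), which oxidises estradiol, and SRD5A2 (1.36), which reduces testosterone, were the others. HSD17B4 was at 0.80 with quantile normalization, and SRD5A2, dim and in part a bound, was at 0.40 with normexp. The dehydrogenase HSD17B8 was at -0.41. Estradiol-forming HSD17B1 and estradiol-oxidising HSD17B4 had opposite signs, at -2.96 and 1.13.

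**Figure D4:**
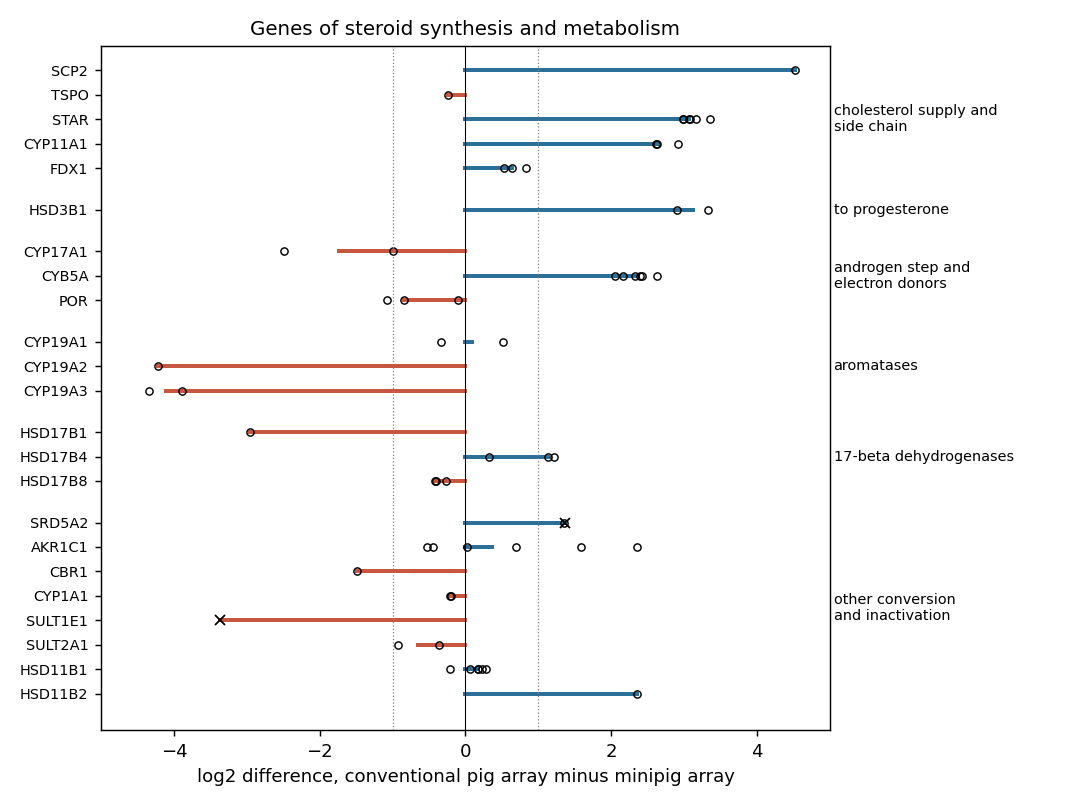
Log2 difference, conventional pig array minus minipig array, of the 23 genes of steroid synthesis and metabolism, grouped by role. Bars end at the gene's median, open circles are probes, crosses are bounds, and dotted lines mark 2-fold. STAR, CYP11A1 and HSD3B1 lie to the right, and CYP17A1, CYP19A2, CYP19A3 and HSD17B1 to the left.

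Of 18 receptors and regulators listed for the members, 10 were named on the array and 9 had a value. At least 2-fold higher in minipig ovary were 3 (33.3%, against 7.96% of all genes), or 2 with median centring and with normexp, and 0 were in conventional pig ovary (against 11.7%). The median was -0.62. FSHR, the receptor through which follicle-stimulating hormone raises aromatase in granulosa cells, had an intensity of 456 in minipig ovary and 38.1 in conventional pig ovary, a log2 difference of -3.63, or -2.63 with normexp background correction. LHCGR, the receptor that drives CYP17A1 and INSL3 in theca cells, had 2 probes at -0.70 and -0.54. INSL3 and LHCGR, both theca genes, differed in size, with -3.76 against -0.62.

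NR5A1, a transcription factor of steroid-making genes, was at 0.02, with 3 probes from -0.72 to 0.75. NR0B1, its repressor, was at -2.43 and at -1.18 with normexp background correction. GATA4, a factor that binds promoters of steroid genes, was at -1.13 and at -0.70 with normexp, short of 2-fold. Among estrogen receptors, ESR1 was at -0.29, and ESR2 lacked the well above background flag on both arrays.

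Markers of the cells that express the members were counted as whole lists, and their counts past 2-fold stand beside the same 7.96% of all genes for minipig ovary and 11.7% for conventional pig ovary. Of 11 theca markers 6 had a value, and 2 were at least 2-fold higher in minipig ovary and 1 in conventional pig ovary. The 2 were INSL3 and CYP17A1, and the 1 was STAR. The summed level of the list, in multiples of the 75th percentile, was 98.9 in minipig ovary and 158 in conventional pig ovary, where STAR was the brightest gene by the median level over its probes, against INSL3 in minipig ovary. Probes differ in response, so a summed level compares the arrays over the same probes, and the brightest gene is that of the spots, not a ranking of RNA. Without INSL3 and CYP17A1 the 4 other theca genes had a median of -0.13, with 0 at least 2-fold higher in minipig ovary.

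Granulosa markers were, like CYP19A2 and CYP19A3, mostly higher in minipig ovary. Of 13 listed, 8 had a value, 6 were at least 2-fold higher in minipig ovary and 0 in conventional pig ovary, and the median was -1.40. Without HSD17B1 and CYP19A1, 5 of 6 were at least 2-fold higher in minipig ovary. The summed level was 129 in minipig ovary and 56.3 in conventional pig ovary, and SERPINE2 was the brightest gene on both. FSHR and HSD17B1 were the lowest, followed by INHA (-2.61), a subunit of inhibin. The 2 probes of INHBA, another subunit, gave -3.91 and 0.37, while FST was at -0.08 and changed sign under 1 setting. AMH, with 4 probes from -2.22 to -0.09, and SERPINE2 had medians just past 2-fold and were at -0.87 each with median centring, which left 4 genes past it. CYP19A1, a granulosa gene itself, was at 0.09.

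Most luteal markers went the opposite way from the members past 2-fold. Of 10 listed, 8 had a value, 0 were at least 2-fold higher in minipig ovary and 6 in conventional pig ovary, with a median of 2.55. The summed level was 106 in minipig ovary and 335 in conventional pig ovary. By the median level over probes, OXT, with a log2 difference of 0.33, was the brightest gene in minipig ovary and STAR in conventional pig ovary, while by single probes it was SCARB1, with an intensity of up to 83071 in minipig ovary and 310351 in conventional pig ovary. Beside the genes of progesterone synthesis and SCP2, PTGFR (2.48), the receptor of the luteolytic prostaglandin, and SCARB1 (2.46), which takes up lipoprotein cholesterol, were higher in conventional pig ovary. The part that differing amounts of granulosa, theca or luteal cells had in the differences of the members was not tested.

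**Figure D5:**
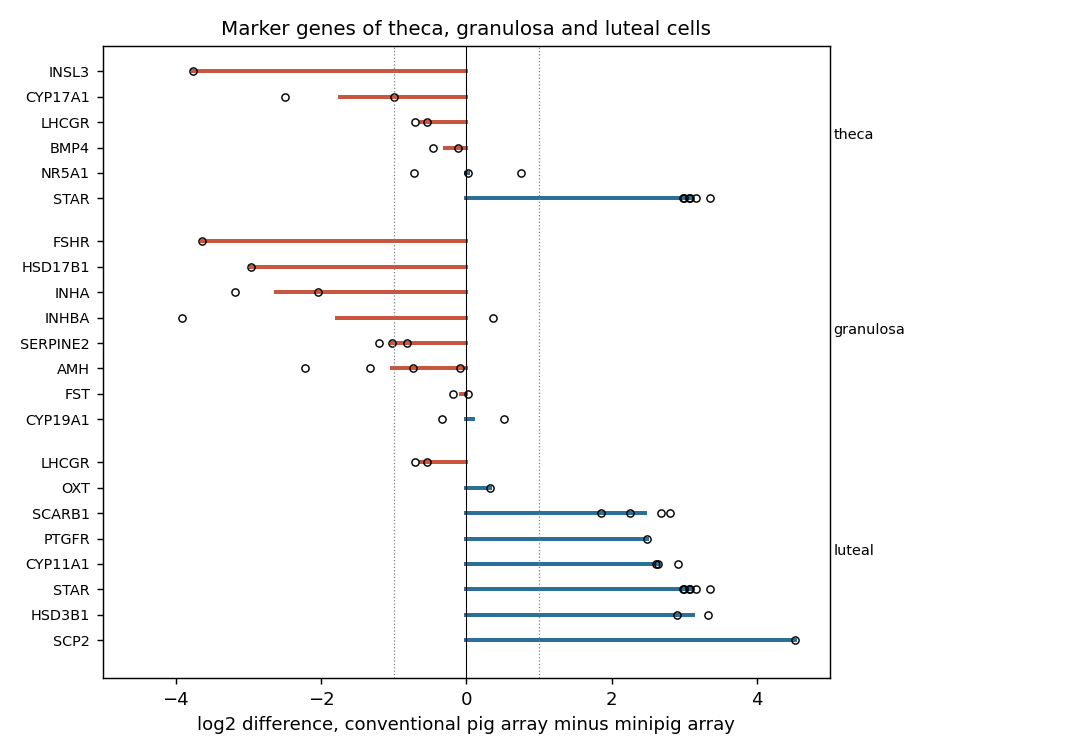
Log2 difference, conventional pig array minus minipig array, of the theca, granulosa and luteal markers with a value. Bars end at the gene's median, open circles are probes and dotted lines mark 2-fold. Granulosa markers lie mostly to the left and luteal markers mostly to the right, while the theca markers run from INSL3 on the left to STAR on the right.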

How the data were processed

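The authors deposited Agilent Feature Extraction 10.7.3.1 output for 1 array per breed, in which each spot has a processed intensity corrected for background and set to no common scale. A second file deposited by the authors gives log2 values of 5617 probes; its minipig column is the log2 intensity of the array labelled conventional pig less a constant, to within 7.46e-07 over the 5613 probes printed once, and its other column holds the array labelled minipig. The methods name GeneSpring for normalization, and the constants are not given in the sources used here. All 5617 listed probes differ at least 2-fold, and the column medians are -0.93 for minipig and -0.66 for conventional pig as the table names them.

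Control spots and outlier spots (5 in minipig ovary, 10 in conventional pig ovary) were left out, repeated spots were averaged as log2 values, and the 75th percentile of each array was subtracted. No spot was saturated. A probe well above background on 1 array only gave a bound, taken on the other array against the lowest intensity with that flag or the probe's own if higher; 2224 of 38883 probes with a value did. Accessions, without versions, were matched to the RefSeq table of Sscrofa11.1, which named 5577 of 43597 probes (12.8%). That table was also used for the order and neighbours of genes, and none of its coordinates are printed. Sequences of probes, promoters and proteins were not used here, so the planned protein identities and promoter motifs were not analysed here.

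The members and lists were chosen with earlier results of these data known. Named were the members and CYP19A2, genes of the pathway and regulator lists past 2-fold with a set of fixed others, the 2 largest differences each way of each marker list, and the 2 genes nearest to each member; a few further list genes were named after their values were seen. The value of 1 gene that the rule names is not reported here. Alternatives were median centring, quantile and loess (span 0.3) normalization, normexp with an offset of 50 on median spot and background signals, outlier spots kept, other filters on dim probes, the deposited log2 table, the brightest probe, single probes left out, 3-fold and gene symbols. Software was R 4.3.3 with limma 3.58.1 for normexp, and Python 3.11.15 with matplotlib 3.10.9, statsmodels 0.14.6, scipy 1.17.1, pandas 2.3.3 and numpy 2.4.6. The steps were tested on simulated data. Both arrays lay on the same slide. The number of arrays limits the precision.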

Additional observations from a re-analysis of the deposited data

How the results depend on the processing

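Over 7 settings (median centring, quantile, loess, normexp, outlier spots kept, and either filter on dim probes) no probe or gene among the members changed sign, and CYP17A1, CYP19A3, HSD17B1 and INSL3 stayed past 2-fold. Normexp moved CYP17A1 to -1.19, CYP19A3 to -3.43, CYP19A3 minus CYP19A1 to -3.57 and the probes at least 2-fold higher in minipig ovary from 3475 to 1411; the cause was not tested. The probe with the highest mean log2 intensity over both arrays gave -0.99 for CYP17A1, short of 2-fold, and 0.52 for CYP19A1. With each probe left out in turn CYP17A1 ran from -2.49 to -0.99 and CYP19A1 from -0.34 to 0.52. At 3-fold, 1184 probes were higher in minipig ovary and 1128 in conventional pig ovary, and 188 and 277 gene symbols passed 2-fold.

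With the breeds as the deposited log2 table names them, the signs turn by its construction: CYP17A1, by its probe A_72_P077566, was at 2.49, CYP19A3 at 4.12 (probes 4.34 and 3.89), CYP19A2 at 4.22, HSD17B1 at 2.96 and INSL3 at 3.76. The table does not list either CYP19A1 probe or the other CYP17A1 probe. No paired analysis was possible because each breed has 1 array. Background limits dim probes, and which of the members it limits most was not ranked.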

Other observations

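Other marker lists gave the following values beside those of the members. Of 10 oocyte markers 6 had a value, and 3 were at least 2-fold higher in minipig ovary (against 7.96% of all genes) and 0 in conventional pig ovary (against 11.7%), with a median log2 difference of -1.13. KIT (-2.04), a receptor found in oocytes and theca, and ZP4 (-1.41), a protein of the zona pellucida, were the lowest, and the summed level was 13.6 in minipig ovary and 3.90 in conventional pig ovary, with KIT the brightest on both.

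Of 6 smooth muscle markers 3 had a value: DES (3.99-fold) and CNN1 (2.49-fold) were higher in minipig ovary, and ACTA2, the brightest on both arrays, was at 0.10 and changed sign under 2 settings. The summed level was 76.2 in minipig ovary and 74.7 in conventional pig ovary. Of 6 endothelium markers 3 had a value, none past 2-fold, with ENG, the brightest on both arrays by the median level over probes, at 0.80, PECAM1, the brightest by single probes, at 0.55 and summed levels of 3.57 and 5.51. Of 6 leukocyte markers 3 had a value, with CD14 at 1.04 (0.80 with normexp), CD3E at 0.22 and CD163, the brightest on both arrays, at -0.25; the summed level was 2.56 in minipig ovary and 2.69 in conventional pig ovary. The adrenal cortex marker CYP21A2, the 1 of 4 named, was at -0.38. Neither of the 2 blood markers was matched to a probe.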
